A study of Mus musculus with 16 samples.

Results

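The nuclear lamina and the high mobility group (HMG) proteins are part of the altered nucleus of senescent cells, and 10 genes that encode them were followed in lung tumour cells with and without CRISPR targeting of *Eif4a2*, which encodes an RNA helicase that acts in translation. The genes were chosen by name out of 20622 in the series. They comprise the 3 lamins (*Lmnb1*, *Lmnb2* and *Lmna*), 3 proteins of the inner nuclear membrane (*Lbr*, *Emd* and *Sun1*), *Hmgb1* and *Hmgb2*, and *Hmga1* and *Hmga2*. Ribosome-protected fragments (RPFs) and total cytoplasmic RNA were measured from the same lysates of untreated KM_NTC and KM_4A2cr cells, with 4 replicates per cell line done as independent experiments on different days, which makes 16 libraries. KM cells were grown from the tumour-bearing lung of 1 male mouse with conditional oncogene alleles, among them a MYC transgene at both Rosa26 loci (Rosa26 LSL-MYC/LSL-MYC), switched on by a virus carrying Cre under the surfactant protein C promoter, and the culture was enriched for epithelial cells. Both cell lines carry these alleles. KM_NTC cells received Cas9 with a non-targeting guide, and KM_4A2cr cells, a pool of 4 clones that the methods describe as negative for eIF4A2 protein, received a guide against the coding region of *Eif4a2*.

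The lamina is a meshwork of B-type lamins, which stay attached to the membrane through a lipid anchor, and A-type lamins, which are spliced from *Lmna*. The lamin B receptor, emerin and SUN1 tie it to chromatin, to the membrane and to the cytoskeleton. Loss of lamin B1 is a widely used sign of senescence, in which HMGB1 leaves the nucleus and acts outside the cell as an alarm signal, HMGB2 falls and the HMGA proteins gather on condensed chromatin. HMGA2 is also an oncofetal protein of lung adenocarcinoma whose mRNA is a classical target of the let-7 microRNAs.

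The RPF libraries held 4512403 to 9621848 counts and the total RNA libraries 5350919 to 9312622. Replicate 4 had the fewest counts of its cell line in both kinds. It held 5703271 (KM_NTC) and 4512403 (KM_4A2cr) in RPFs and 5580726 and 5350919 in total RNA. The targeted gene, *Eif4a2*, was lower in KM_4A2cr than in KM_NTC in each of the 4 pairs, for RPFs and for total RNA. It changed by -0.49 ± 0.15 on the log2 scale in RPFs (standard error, adjusted p = 0.0941 by edgeR) and by -0.18 ± 0.13 in total RNA (adjusted p = 0.504 by edgeR). *Eif4a2* RPFs thus remained in KM_4A2cr, at 51.0 to 346 CPM (counts scaled to library size), so the deposited RPFs do not by themselves show loss of the gene. Replicate 4 was high in both cell lines, at 389 CPM in KM_NTC and 346 in KM_4A2cr. Replicates 1 to 3 were at 97.7 to 122 CPM in KM_NTC and 51.0 to 88.4 in KM_4A2cr. Without replicate 4 the total RNA change was -0.19 (adjusted p = 0.147 by edgeR). The RPF change was -0.60 without replicate 4 (adjusted p = 0.00304 by edgeR) and was not called without replicate 1, 2 or 3, where the adjusted p rose to at most 0.377 by edgeR. Here and throughout, differences are KM_4A2cr minus KM_NTC, p-values are those of the quasi-likelihood F-test corrected by the Benjamini-Hochberg method for every gene tested, and a gene was called below 0.1. The libraries of replicate 4 stood apart in both cell lines. Its value lay outside the range of replicates 1 to 3, on the same side in KM_NTC and in KM_4A2cr, for 45.1% of the genes tested in RPFs and 45.1% of those tested in total RNA, against 14.3% to 34.4% for the other replicate numbers. In replicate 4 the summed RPFs of 12 proliferation markers were 681 CPM in KM_NTC and 481 in KM_4A2cr, against 1111 to 1693 in replicates 1 to 3. The RPFs of 6 macrophage and leukocyte markers summed to 832 and 722 CPM there, against 165 to 262 in the others. Over the RPF libraries *Cd68* ranged from 74.0 to 777 CPM, *Cd14* from 19.1 to 90.5 and *Mrc1* from 8.08 to 73.2. *Ptprc*, *Csf1r* and *Adgre1* were below 3 CPM in every library. The fitted changes of the 10 genes are therefore given with and without replicate 4, and its part in them beyond that was not tested. The epithelial markers *Epcam*, *Cdh1*, *Krt8*, *Krt18* and *Krt19* were abundant, whereas *Sftpc* and *Sftpb*, which define alveolar type II cells, had 0 counts in all libraries of both kinds. *Epcam* and *Cdh1* rose in KM_4A2cr RPFs (log2 fold changes of 0.51 and 0.44, adjusted p = 0.0770 and 0.0845 by edgeR), calls that held without replicate 4 but not without replicate 1, 2 or 3. In the whole list of 10 epithelial and alveolar type II markers, 5 were tested in RPFs. Of these, 3 had a log2 fold change above 0, and the median was 0.13. None of the list was called in total RNA with all replicates. Of 8 fibroblast markers, 6 were at 0 in all RPF libraries, and the 8 summed to 21.4 CPM at most, as 4 endothelial markers did to 17.4.

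In KM_NTC cells, levels per transcript length, taken from the deposited TPM values of total RNA, put *Hmga1*, *Hmgb1* and *Hmga2* at the top. *Hmga1* had 1353 ± 192 TPM (SD, n = 4), *Hmgb1* had 375 ± 150 and *Hmga2* had 226 ± 114, and each lay above the next in at least 3 of 4 libraries. *Emd* (120 ± 23.2), *Hmgb2* (103 ± 43.4), *Lbr* (101 ± 12.8), *Lmna* (90.2 ± 35.2) and *Sun1* (83.4 ± 7.08) formed a group whose neighbours overlapped, with *Hmgb2*, *Lbr* and *Lmna* each above the next in only 2 of 4 libraries. *Lmnb1* followed with 60.1 ± 18.2 TPM, below *Sun1* in 4 of 4 libraries. *Lmnb2* was scarce, at 5.63 ± 2.37 TPM, and had only 23 to 160 RPF counts and 41 to 124 total RNA counts per library. In KM_4A2cr cells *Hmga2*, at 333 ± 198 TPM, came before *Hmgb1*, at 295 ± 132, in 3 of 4 libraries.

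With 4 pairs, none of the 10 genes passed the threshold in RPFs, where 10.3% of all tested genes did, in total RNA, where 6.13% did, or in translational efficiency (TE), where 2.87% did. TE is the change of RPFs relative to that of total RNA, tested as an interaction in 1 model over the 16 libraries. DESeq2 also called 0 of the 10 in each. At an unadjusted p under 0.05 by edgeR there were 2 in RPFs (23.4% of all tested genes), 2 in total RNA (18.3%) and 1 in TE (14.1%). The median log2 fold change of the 10 genes was -0.08 in RPFs, 0.08 in total RNA and -0.08 in TE, against -0.01, 0.01 and -0.02 over all tested genes. Scaling by library size alone put them at -0.21, -0.08 and -0.06, against -0.14, -0.15 and 0.00 over all tested genes. Without replicate 4, 4 of the 10 were called in RPFs (33.4% of all tested genes), 6 in total RNA (29.8%) and 1 in TE (7.94%), and the medians of the 10 were -0.05, -0.03 and 0.02, against -0.02, -0.02 and 0.01 over all tested genes. With replicate 1, 2 or 3 left out instead, none of the 10 was called in RPFs, total RNA or TE. In neither kind of library did the values of the 2 cell lines separate without overlap for any of the 10, which happened for 2.13% of genes in RPFs and 1.97% in total RNA.

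**Figure D1:**
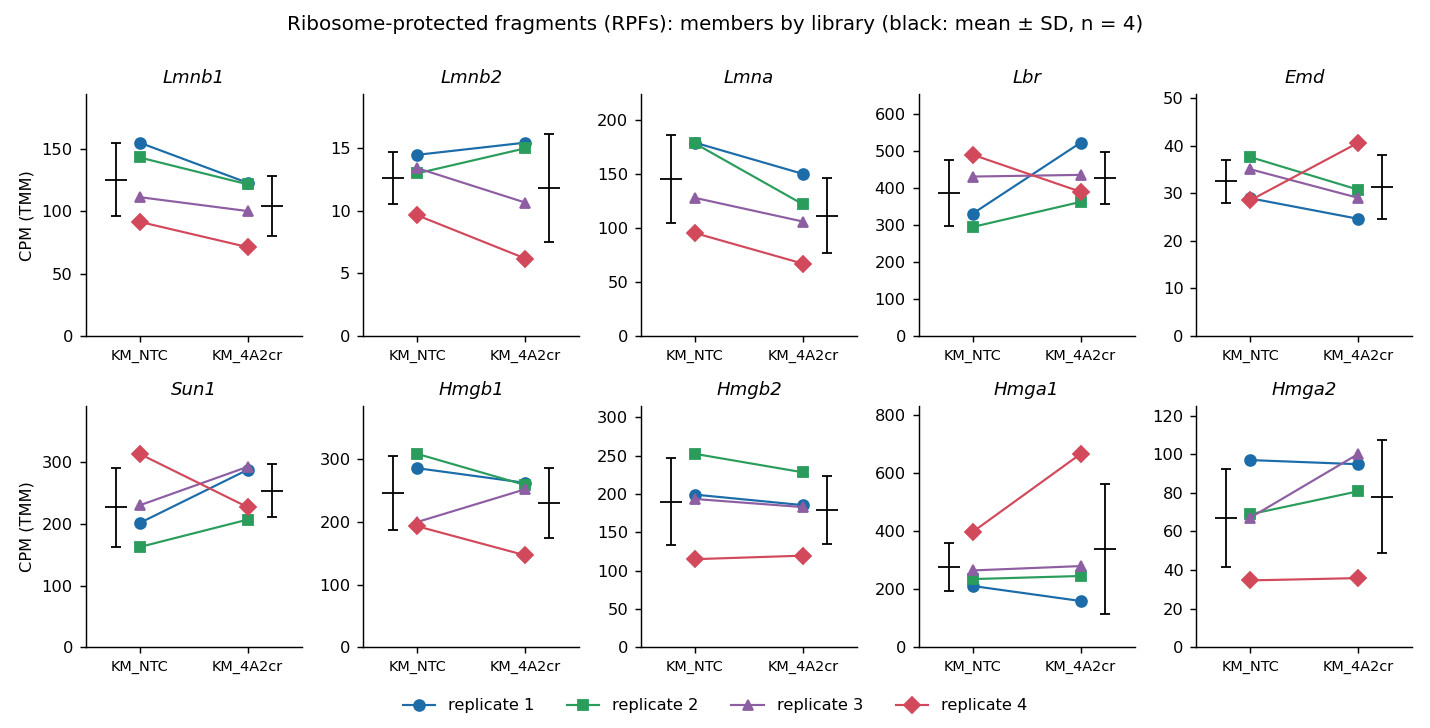
RPF level of each of the 10 genes in CPM (vertical axis, from 0, a different scale in each panel) in KM_NTC and KM_4A2cr libraries, with a line joining the libraries of 1 replicate number and black bars for mean ± SD (n = 4). *Lmnb1* and *Lmna* are lower in KM_4A2cr along all 4 lines, and replicate 4 (red diamonds) is the lowest of its cell line for *Lmnb1*, *Lmnb2*, *Lmna*, *Hmgb1*, *Hmgb2* and *Hmga2* and the highest for *Hmga1*.

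Lamin B1 and lamin A/C were the 2 members that were lower in KM_4A2cr in every pair of both kinds of library. Of all tested genes, 16% were lower in every pair in RPFs and 13% in total RNA. The 2 kinds came from the same lysates, and the share of genes lower in both was not counted. *Lmnb1* (ENSMUSG00000024590.9) had 155, 143, 111 and 91.7 RPF CPM in KM_NTC replicates 1 to 4 and 123, 122, 100.3 and 71.4 in KM_4A2cr. The KM_4A2cr value was the lower of each pair, but the ranges of the cell lines overlapped. In total RNA the KM_NTC values were 108, 95.7, 92.0 and 64.0 CPM and the KM_4A2cr values 90.9, 78.8, 69.1 and 57.4. The same order held within each pair. The RPF log2 fold change of *Lmnb1* was -0.27 (95% interval -0.54 to 0.00, adjusted p = 0.211 by edgeR) and that in total RNA was -0.28 (-0.54 to -0.02, adjusted p = 0.246 by edgeR). Both therefore missed the threshold. Without replicate 4 the change was -0.24 in RPFs (adjusted p = 0.0874 by edgeR) and -0.32 in total RNA (adjusted p = 0.0213 by edgeR), and both passed.

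*Lmna* (ENSMUSG00000028063.16) had 179, 178, 128 and 95.5 RPF CPM in KM_NTC and 150, 122, 106 and 67.0 in KM_4A2cr. It was lower in each pair, with log2 differences of -0.25, -0.55, -0.27 and -0.51. Its RPF log2 fold change was -0.39 (95% interval -0.67 to -0.11, adjusted p = 0.104 by edgeR), which lay just outside the threshold. In total RNA the values were 123, 123, 89.1 and 64.8 CPM in KM_NTC and 93.7, 84.0, 66.8 and 64.5 in KM_4A2cr. Pair 4 hardly differed there, at -0.01, while pairs 1 to 3 differed by -0.39, -0.55 and -0.41. The total RNA log2 fold change was -0.35 (-0.64 to -0.06, adjusted p = 0.189 by edgeR) over 4 pairs and -0.46 (adjusted p = 0.00139 by edgeR) without replicate 4, where the RPF change was -0.36 (adjusted p = 0.0222 by edgeR). Of all tested genes 16% were lower in 4 of 4 pairs in RPFs, as were 2 of the 10, and 13% in total RNA, as were 3 of the 10 with *Hmgb1*. RPFs were counted on 1 transcript per gene and the 3 *Lmna* isoforms in the total RNA tables took counts by their length, so lamin A and lamin C are not given apart.

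*Lmnb2* (ENSMUSG00000062075.14), the other B-type lamin, did not share this order. Its RPFs were 14.5, 13.0, 13.4 and 9.65 CPM in KM_NTC and 15.5, 15.0, 10.7 and 6.19 in KM_4A2cr, higher in pairs 1 and 2 and lower in pairs 3 and 4. The RPF log2 fold change was -0.11, with a 95% interval from -0.50 to 0.29 (adjusted p = 0.754 by edgeR), and that in total RNA was 0.07, from -0.34 to 0.47 (adjusted p = 0.892 by edgeR). The RPF interval covers both no change and a fall of the size of the *Lmna* difference. Without replicate 4 the changes were 0.01 in RPFs (adjusted p = 0.977 by edgeR) and -0.03 in total RNA (adjusted p = 0.930 by edgeR).

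**Figure D2:**
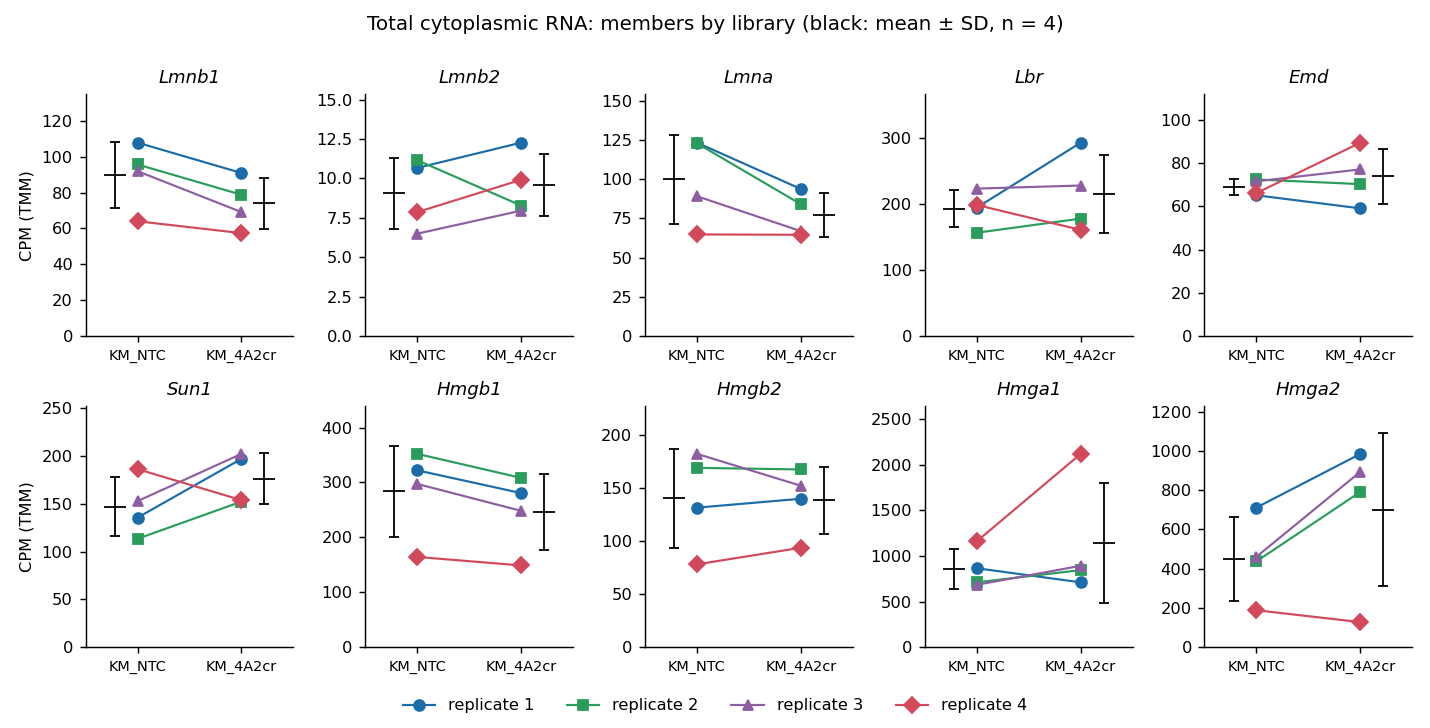
Total cytoplasmic RNA of the same 10 genes in CPM (vertical axis, from 0, a different scale in each panel), drawn as for RPFs, with black bars for mean ± SD (n = 4). *Hmga2* is higher in KM_4A2cr in replicates 1 to 3 and lower in replicate 4, where it is at 188 and 128 CPM, and *Sun1* and *Lbr* show the same crossing of the replicate 4 line.

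Of the proteins that hold the lamina to the membrane, the lamin B receptor and SUN1 were higher in KM_4A2cr in pairs 1 to 3 and lower in pair 4. SUN1 is the inner component of the LINC complex, the bridge from the lamina to the cytoskeleton. *Sun1* (ENSMUSG00000036817.15) had 201, 162, 230 and 313 RPF CPM in KM_NTC and 288, 207, 293 and 227 in KM_4A2cr. The log2 differences were 0.51, 0.35 and 0.35 in pairs 1 to 3 and -0.47 in pair 4. Total RNA gave 0.54, 0.42, 0.40 and -0.28. The fit over 4 pairs gave 0.19 in RPFs (95% interval -0.20 to 0.58, adjusted p = 0.544 by edgeR) and 0.28 in total RNA (-0.06 to 0.62, adjusted p = 0.383 by edgeR). Without replicate 4 the gene was called in both, at 0.40 (adjusted p = 0.00893 by edgeR) and 0.45 (adjusted p = 0.00123 by edgeR).

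*Lbr* (ENSMUSG00000004880.12), which is both a receptor for B-type lamins and a sterol reductase, had 330, 295, 431 and 490 RPF CPM in KM_NTC and 522, 362, 435 and 390 in KM_4A2cr. Pair 1 carried the largest difference, 0.66 on the log2 scale, pair 3 almost none, 0.02, and pair 4 the opposite, -0.33. Over 4 pairs the RPF log2 fold change was 0.16 (95% interval -0.22 to 0.54, adjusted p = 0.601 by edgeR) and that in total RNA was 0.13 (-0.22 to 0.47, adjusted p = 0.719 by edgeR). Without replicate 4 these were 0.33 (adjusted p = 0.0688 by edgeR) and 0.26 (adjusted p = 0.0783 by edgeR), whereas without replicate 1 they were -0.01 and -0.03.

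*Emd* (ENSMUSG00000001964.15), which encodes emerin, a LEM-domain protein that binds lamin A and the chromatin factor BAF, was lower in RPFs in pairs 1 to 3. Its values were 29.0, 37.6, 35.1 and 28.5 CPM in KM_NTC and 24.6, 30.8, 29.0 and 40.7 in KM_4A2cr, so that pair 4 alone was higher. Total RNA differed by less than the spread between pairs, with differences of -0.14, -0.04, 0.11 and 0.43. The fitted changes were -0.09 in RPFs (95% interval -0.45 to 0.28, adjusted p = 0.781 by edgeR) and 0.09 in total RNA (-0.21 to 0.38, adjusted p = 0.781 by edgeR), and neither was called without replicate 4, at -0.27 (adjusted p = 0.121 by edgeR) and -0.03 (adjusted p = 0.856 by edgeR). A pair 4 opposed to 3 agreeing pairs was seen in RPFs for 4 of the 10 members (*Lbr*, *Emd*, *Sun1* and *Hmgb2*) and for 25.4% of all tested genes, and in total RNA for 3 of the 10 (*Lbr*, *Sun1* and *Hmga2*) and 25.9%.

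**Figure D3:**
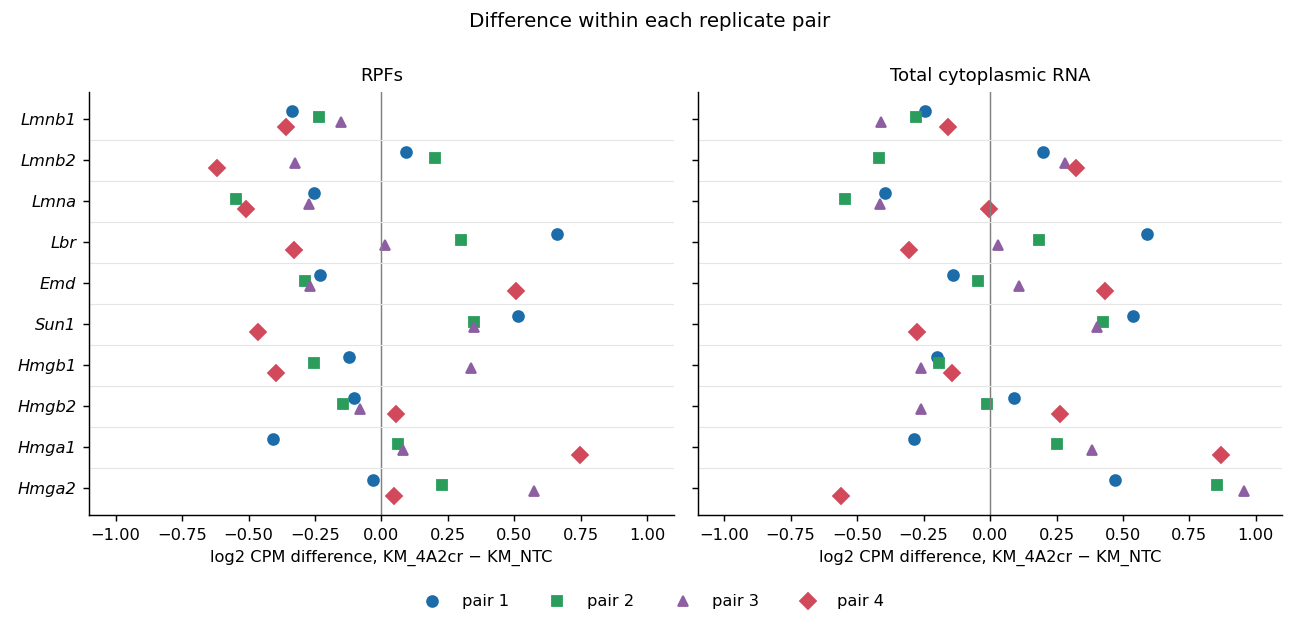
Difference in log2 CPM between KM_4A2cr and KM_NTC (horizontal axis) within each of the 4 replicate pairs, for RPFs and total RNA, 1 row per gene. All 4 pairs of *Lmnb1* and *Lmna* lie below 0 in both panels, and pair 4 (red diamonds) lies on the other side of 0 from pairs 1 to 3 for *Lbr* and *Sun1* in both panels.

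The HMGB proteins bend DNA and package it, and HMGB1 is released by stressed and senescent cells. *Hmgb1* (ENSMUSG00000066551.13) total RNA was 322, 352, 297 and 164 CPM in KM_NTC and 281, 308, 248 and 149 in KM_4A2cr. It was lower in 4 of 4 pairs by a narrow range of log2 differences, from -0.26 to -0.14. The fitted change was -0.20 (95% interval -0.48 to 0.08, adjusted p = 0.447 by edgeR) and reached the threshold only without replicate 4, at -0.23 (adjusted p = 0.0766 by edgeR). RPFs of *Hmgb1* did not follow in each pair. They were 286, 309, 200.0 and 193 CPM in KM_NTC and 263, 259, 252 and 147 in KM_4A2cr, with pair 3 higher by 0.34 and a fitted change of -0.11 (-0.44 to 0.22, adjusted p = 0.700 by edgeR). Without replicate 4 the RPF change was -0.02 (adjusted p = 0.941 by edgeR).

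*Hmgb2* (ENSMUSG00000054717.8), which is highest in dividing cells, had 199, 252, 194 and 115 RPF CPM in KM_NTC and 185, 228, 183 and 120 in KM_4A2cr. The cell lines differed little in each pair, while replicate 4 was near 0.535 and 0.601 times the mean of replicates 1 to 3 in KM_NTC and KM_4A2cr. Its fitted changes were -0.07 in RPFs (95% interval -0.34 to 0.20, adjusted p = 0.757 by edgeR) and 0.02 in total RNA (-0.27 to 0.30, adjusted p = 0.968 by edgeR). Without replicate 4 they were -0.11 (adjusted p = 0.427 by edgeR) and -0.07 (adjusted p = 0.666 by edgeR).

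The HMGA proteins, AT-hook factors that reshape chromatin, were the 2 members with the widest spread between pairs in total RNA. *Hmga1* (ENSMUSG00000046711.17) had 211, 235, 265 and 397 RPF CPM in KM_NTC and 159, 246, 280 and 666 in KM_4A2cr. Its total RNA was 867, 711, 684 and 1162 CPM in KM_NTC and 712, 846, 894 and 2121 in KM_4A2cr. Replicate 4 was the highest of its cell line in both kinds of library, and its pair differed by 0.75 in RPFs and 0.87 in total RNA, while pair 1 differed by -0.41 and -0.28. The fitted changes were 0.12 (95% interval -0.28 to 0.53, adjusted p = 0.726 by edgeR) and 0.31 (-0.14 to 0.75, adjusted p = 0.470 by edgeR), and without replicate 4 they were -0.09 (adjusted p = 0.624 by edgeR) and 0.11 (adjusted p = 0.531 by edgeR). *Hmga1* shares sequence with *Hmga1b*, a near-identical gene listed apart, which held between 20.4% and 25.5% as many RPF counts as *Hmga1* and between 9.56% and 11.8% as many total RNA counts. Adding these counts to *Hmga1*, an alternative chosen after the data were seen, left it uncalled in RPFs, total RNA and TE.

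*Hmga2* (ENSMUSG00000056758.15) gave the largest total RNA change of the 10 genes. It had 711, 437, 461 and 188 CPM in KM_NTC and 984, 791, 894 and 128 in KM_4A2cr. Replicates 1 to 3 of KM_4A2cr all lay above every KM_NTC library, with pair ratios of 1.38 to 1.94, and replicate 4 of KM_4A2cr lay below them all. Over 4 pairs the log2 fold change was 0.45 (95% interval -0.07 to 0.97, adjusted p = 0.355 by edgeR), and without replicate 4, the only pair in the other direction, it was 0.75 (0.54 to 0.96, adjusted p = 1.61e-05 by edgeR). Without replicate 1, 2 or 3 it was 0.44, 0.30 and 0.27 and was not called (adjusted p = 0.568, 0.788 and 0.816 by edgeR).

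RPFs of *Hmga2* differed less between the cell lines than its total RNA did. They were 96.9, 68.9, 67.1 and 34.6 CPM in KM_NTC and 94.8, 80.8, 100.2 and 35.8 in KM_4A2cr, with log2 differences of -0.03, 0.23, 0.58 and 0.05. The fitted RPF change was 0.21 (95% interval -0.11 to 0.53, adjusted p = 0.407 by edgeR) over 4 pairs and 0.25 (adjusted p = 0.147 by edgeR) without replicate 4. RPF CPM divided by total RNA CPM was 0.136, 0.157, 0.146 and 0.184 in KM_NTC and 0.0963, 0.102, 0.112 and 0.280 in KM_4A2cr. This ratio was lower in KM_4A2cr in pairs 1 to 3 and higher in pair 4. The TE change was -0.31 (-0.59 to -0.04, adjusted p = 0.264 by edgeR) with all replicates and -0.48 (-0.67 to -0.30, adjusted p = 0.000780 by edgeR) without replicate 4. Without replicate 1, 2 or 3 it was -0.22, -0.18 and -0.26 (adjusted p = 0.734, 0.738 and 0.625 by edgeR).

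**Figure D4:**
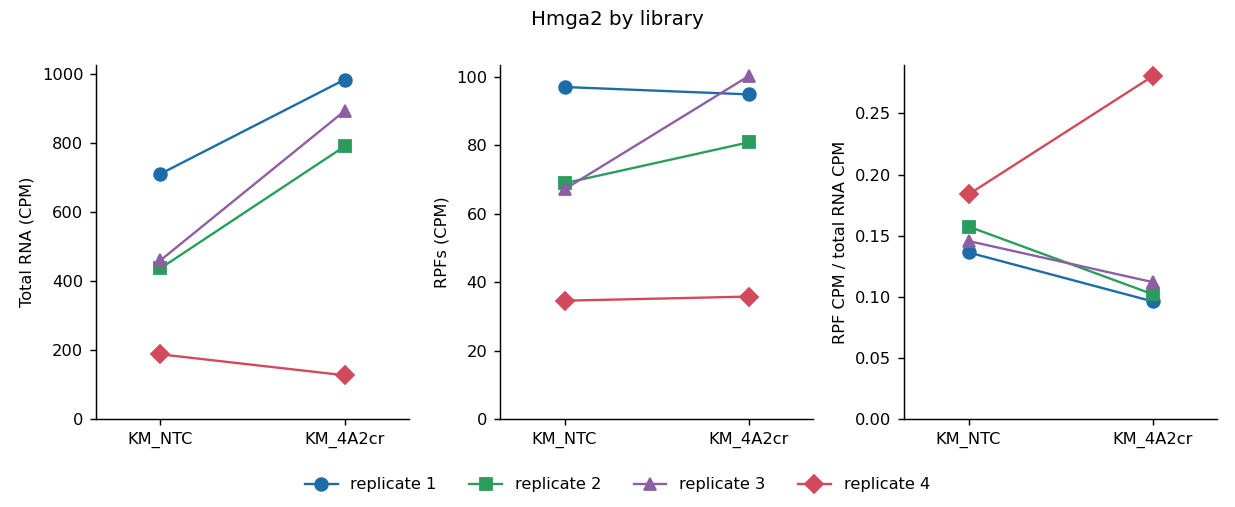
*Hmga2* total RNA (left, CPM), RPFs (middle, CPM) and their ratio (right) in KM_NTC and KM_4A2cr, each vertical axis from 0, with a line for each replicate number. In replicates 1 to 3 total RNA is at 437 to 711 CPM in KM_NTC and at 791 to 984 CPM in KM_4A2cr and the ratio is lower in KM_4A2cr, while in replicate 4 both lines run the other way.

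TE of the other 9 genes was not called with or without replicate 4. *Hmga1* and *Sun1* were lower in TE in 4 of 4 pairs, as were 11.3% of all tested genes, with changes of -0.18 (95% interval -0.37 to 0.01, adjusted p = 0.381 by edgeR) and -0.08 (-0.27 to 0.10, adjusted p = 0.732 by edgeR). *Lmnb1* and *Lmna*, lower in both RPFs and total RNA, had TE changes of 0.01 (-0.20 to 0.23, adjusted p = 0.970 by edgeR) and -0.02 (-0.25 to 0.20, adjusted p = 0.951 by edgeR). Without replicate 4 the TE changes were 0.08 for *Lmnb1*, 0.11 for *Lmna*, -0.03 for *Sun1* and -0.19 for *Hmga1*. Of the remaining members they were 0.07 for *Lmnb2*, 0.08 for *Lbr*, -0.22 for *Emd*, 0.21 for *Hmgb1* and -0.03 for *Hmgb2*, and the lowest adjusted p of these 9 was 0.215 by edgeR.

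**Figure D5:**
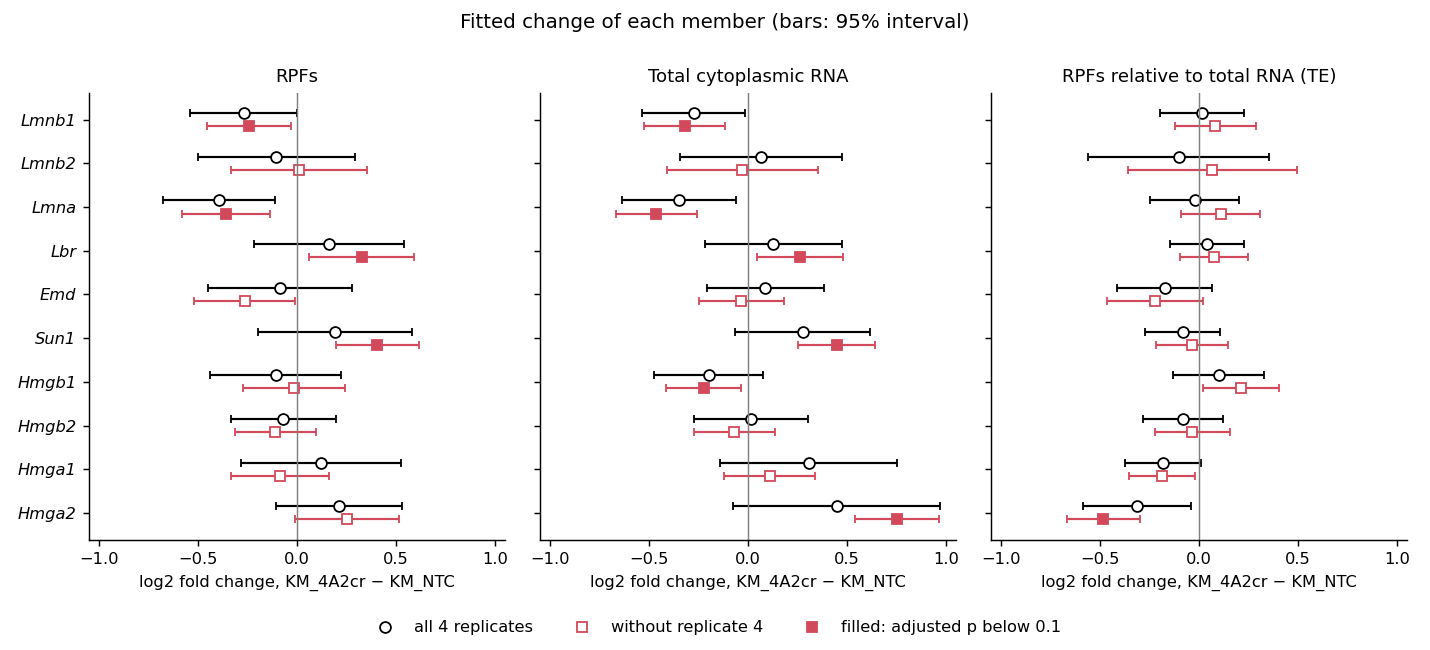
Fitted log2 fold change (horizontal axis) of each gene in RPFs, total RNA and TE with its 95% interval, from all 4 replicates (black circles) and without replicate 4 (red squares), filled where the adjusted p was below 0.1. No black circle is filled. The filled squares are *Lmnb1*, *Lmna*, *Lbr* and *Sun1* in RPFs, these and *Hmgb1* and *Hmga2* in total RNA, and *Hmga2* in TE.

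The members also differed between replicates. Replicate 4 was the lowest of its cell line in both KM_NTC and KM_4A2cr for 6 of the 10 in RPFs (*Lmnb1*, *Lmnb2*, *Lmna*, *Hmgb1*, *Hmgb2* and *Hmga2*), as for 23.1% of all tested genes, and for 5 of the 10 in total RNA, where *Lmnb2* was not among them, as for 21.8%. *Hmga1* was the only member for which it was the highest in both lines, in RPFs (as for 22% of all tested genes) and in total RNA (23.3%). Replicate 4 was farthest below the others for *Hmga2* total RNA in KM_4A2cr, at 0.144 times the mean of replicates 1 to 3, against 0.351 times in KM_NTC. Of the 12 proliferation markers, 10 were lowest in replicate 4 of both cell lines, in RPFs and in total RNA alike. Fewer dividing cells and less of these transcripts per cell cannot be told apart in such bulk libraries.

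Lists of related genes were read against all tested genes, of which 6.6% rose and 3.72% fell in RPFs, 4.35% rose and 1.78% fell in total RNA, and 48.9% had an RPF change above 0. Without replicate 4, 19.1% of all tested genes rose and 14.3% fell in RPFs, and 17.8% rose and 12% fell in total RNA. Around the lamina, 19 other genes of the inner nuclear membrane, the LINC complex and the nuclear pore basket were all tested. In RPFs 3 of them rose and 1 fell, and 13 had a log2 fold change above 0, with a median of 0.09. *Syne3*, a nesprin of the outer nuclear membrane, rose by 0.82 (adjusted p = 0.0243 by edgeR), and *Lemd2*, a LEM-domain protein, by 0.76 (adjusted p = 0.0256 by edgeR). *Tmem43*, a partner of emerin and the lamins, rose by 0.53 (adjusted p = 0.0414 by edgeR), and *Syne1*, the giant nesprin that reaches actin, fell by 0.50 (adjusted p = 0.0941 by edgeR). In total RNA the first 3 rose too, by 0.80, 0.54 and 0.58 (adjusted p = 0.0114, 0.0478 and 0.0371 by edgeR), and the median was 0.16. All 3 were higher in 4 of 4 pairs of both kinds of library. With libraries scaled by size alone the median of this list was -0.04 in RPFs and 0.00 in total RNA. Without replicate 4, 10 of the 19 rose and 3 fell in each kind of library. None was called in TE.

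Among 9 genes that process or modify lamins, *Icmt*, the methyltransferase that completes the lipid-anchored end of the lamins, was the only one called. The gene rose by 0.90 in RPFs (adjusted p = 0.0118 by edgeR) and by 0.59 in total RNA (adjusted p = 0.0295 by edgeR), in 4 of 4 pairs of each. Without replicate 4, 4 of the 9 rose and 1 fell in RPFs, and 3 rose and 1 fell in total RNA. The medians of the 9 were 0.16 in RPFs and 0.18 in total RNA. *Zmpste24*, *Rce1* and the farnesyltransferase subunits *Fnta* and *Fntb*, which act in the same pathway, were tested and not called.

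Of 17 other HMG-box and HMGN genes, 15 were tested in RPFs and 16 in total RNA, with medians of -0.01 and -0.05. *Ssrp1*, a subunit of the histone chaperone FACT, fell by 0.41 in RPFs (adjusted p = 0.0991 by edgeR), and none was called in total RNA. Without replicate 4, 2 fell and 1 rose in RPFs, and 3 fell in total RNA. *Ubtf*, the ribosomal DNA transcription factor, was the only one called in TE, at 0.50 (adjusted p = 0.0482 by edgeR), and was named after its value was seen. Among 18 genes of heterochromatin and the chromatin of senescent cells, 17 were tested. The RPF median was -0.18, with 4 of 17 above 0 and no call, and the total RNA median was -0.10. *H2afy2*, which encodes macroH2A2, a histone variant of silent chromatin, was the single call, with a rise of 1.13 in total RNA (adjusted p = 0.0730 by edgeR). Without replicate 4, 4 of the 17 fell in RPFs, and 2 fell and 1 rose in total RNA.

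A list of 8 genes that act on let-7 or bind *Hmga2* mRNA held 5 that could be tested, with medians of 0.22 in RPFs and -0.04 in total RNA. *Lin28a* and *Lin28b*, which block let-7 maturation, and *Igf2bp3* had 0 RPF counts in all libraries and at most 6 total RNA counts in a cell line, too few to test. *Igf2bp2*, an mRNA-binding protein that is itself regulated through HMGA2, fell by 0.48 in total RNA (adjusted p = 0.0872 by edgeR), from 155 ± 8.43 to 112 ± 15.1 CPM (SD, n = 4). Its RPFs were 54.1 ± 8.42 and 54.9 ± 8.35 CPM, and its TE was higher by 0.51 (adjusted p = 0.0264 by edgeR). *Igf2bp1* fell by 0.60 in RPFs (adjusted p = 0.0649 by edgeR), from 20.0 ± 6.59 to 13.1 ± 2.76 CPM. *Dis3l2*, *Dicer1* and *Ago2* were not called in either kind of library with all replicates. Without replicate 4, 1 of the 5 fell in RPFs, and 2 fell and 1 rose in total RNA.

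Of 12 receptors and partners of HMGB1, 8 were tested, and the medians were 0.05 in RPFs and -0.25 in total RNA. With scaling by library size alone the RPF median was -0.08, against -0.14 over all tested genes. *Cd24a*, a surface glycoprotein that binds HMGB1, fell by 0.62 in total RNA (adjusted p = 0.0327 by edgeR) in 4 of 4 pairs, and no other was called. Without replicate 4, 1 rose and 1 fell in RPFs, and 4 fell in total RNA. Of the 12 proliferation markers 1 had an RPF change above 0, with a median of -0.28 in RPFs and -0.18 in total RNA. *Ccnb1*, the mitotic cyclin, was the only one called, with a fall of 0.67 in RPFs (adjusted p = 0.0243 by edgeR). Without replicate 4, 4 of the 12 fell and 1 rose in RPFs, and 5 fell in total RNA. Each call named from the lists held without replicate 4, while with replicate 1, 2 or 3 left out most were lost and the adjusted p rose to at most 0.475 by edgeR.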

How the data were processed

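The RPF values deposited by the authors were raw counts, 1 transcript per gene. Reads had been trimmed (Cutadapt 1.18), freed of rRNA and tRNA, aligned with BBmap to GENCODE vM27 protein-coding transcripts, using the isoform most expressed in each gene, and collapsed by UMI (UMI-tools 1.0.1). Fragments of 28 to 33 nucleotides were counted over the coding region, leaving out 20 codons at its start and 10 at its end. The total RNA values deposited by the authors were RSEM 1.3.3 expected counts and TPM per isoform, made with Bowtie2 2.3.5.1 and UMI collapsing.

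Here, expected counts were summed per gene and rounded. Genes were filtered with filterByExpr, scaled by TMM within each kind of library and fitted with edgeR 4.0.16 (R 4.3.3). RPFs and total RNA were fitted separately, with terms for replicate number and cell line. The TE model had terms for each lysate, for kind of library, for replicate within kind, and for the interaction of cell line and kind. Adjusted p-values are Benjamini-Hochberg values over 10291 (RPFs), 10880 (total RNA) and 9989 (TE) genes. CPM values are TMM-scaled. A prior count of 2 was added for log2 CPM. Separate scaling hides any change of all RPFs or all mRNA. Replicate numbers were taken to pair the libraries because the paper shows batch-corrected PCA plots and an earlier analysis of the series used this block. Deviations from the cell line means correlated at 0.575 to 0.782 in each of the 4 pairs of both kinds. Correlations between different numbers are not given, so these values do not by themselves establish the pairing. The sources do not say that a number marks a shared day. Both cell lines come from 1 mouse, so p-values measure the spread between these experiments, not between animals. Each arm is also 1 cell line, with KM_4A2cr a pool of 4 clones. Differences between the lines as such therefore cannot be told apart from *Eif4a2* targeting.

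The 10 members are named throughout, and from each of 7 gene lists at most 5 called genes per kind of library with the smallest p. The members and lists were chosen with earlier results of these data known. Alternatives were no replicate block, DESeq2 1.42.0, other scalings and filters, a threshold of 0.05, each replicate left out and counts of the RPF isoform only. Gene names came from a table that covered 20586 of 20622 genes. No coordinates or sequences are given.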

Additional observations from a re-analysis of the deposited data

Results flagged for a closer look

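All 4 values of each of the 10 genes and of *Eif4a2* were examined in each cell line and kind of library for 1 library far from the other 3, which makes 44 groups, of which chance would give about 1 in 20. There were 5 flagged values, and each was a replicate 4. In KM_4A2cr, *Hmgb1* RPFs were 147 CPM in replicate 4, against 252 to 263 in the others, and *Hmga1* total RNA was 2121 CPM, against 712 to 894. *Eif4a2* RPFs were 389 CPM in KM_NTC replicate 4, against 97.7 to 122 in the others, and 346 CPM in KM_4A2cr replicate 4, against 51.0 to 88.4. *Eif4a2* total RNA was 524 CPM in KM_NTC replicate 4, against 220 to 254.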

How the results depend on the processing

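The number of genes called over the whole table depended on the settings and on the replicates used. The count of 1062 in RPFs, 667 in total RNA and 287 in TE became 438, 321 and 75 at a threshold of 0.05. With libraries scaled by size alone it was 1619, 1130 and 133, of which 482, 262 and 105 were higher in KM_4A2cr, against 679, 473 and 187 with TMM and 534 of 998, 325 of 541 and 160 of 243 with upper-quartile scaling. Without a filter on low counts total RNA gave 1268 and TE 470, and DESeq2 gave 136 in TE. Without the replicate block the pairing was lost and 0 genes were called in each of the 3 comparisons. Leaving out 1 replicate gave 32 to 3469 genes in RPFs, 63 to 3260 in total RNA and 15 to 800 in TE, with the lowest counts without replicate 3 (RPFs, total RNA) or 1 (TE) and the highest without replicate 4. Of the 10 genes, 0 to 4 were then called in RPFs, 0 to 6 in total RNA and 0 to 1 in TE, and all of these calls came without replicate 4. Upper-quartile scaling called 1, *Lmna* in RPFs (adjusted p = 0.0863 by edgeR), beside 998 calls among the 10291 genes tested. Scaling by size alone called 2, *Lmna* and *Lmnb1*, in RPFs and the same 2 in total RNA (adjusted p from 0.0400 to 0.0910 by edgeR). These stood beside 1619 calls among 10291 genes tested in RPFs and 1130 among 10880 in total RNA, most of them lower in KM_4A2cr.

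*Lmnb1*, *Lmna*, *Sun1*, *Hmgb1* and *Hmga2* kept their direction in RPFs and in total RNA under every alternative run. Small changes turned direction elsewhere. With scaling by size alone these were *Hmga1* in RPFs (-0.0079) and *Lmnb2* (-0.087), *Lbr* (-0.029), *Emd* (-0.069) and *Hmgb2* (-0.14) in total RNA. That scaling put the median over all tested genes at -0.14 in RPFs and -0.15 in total RNA, against -0.01 and 0.01 with TMM. *Hmgb2* in total RNA was also -0.020 without the replicate block, -0.024 with upper-quartile scaling and -0.0052 with no filter. *Lbr* in TE was -0.0073 without the block, and *Sun1* in TE was 0.083 when only the RPF isoform was counted. Leaving out 1 replicate gave -0.24 to 0.0089 for *Lmnb2*, -0.0052 to 0.33 for *Lbr*, -0.27 to 0.0090 for *Emd* and -0.085 to 0.30 for *Hmga1* in RPFs. In total RNA it gave -0.030 to 0.27 for *Lmnb2*, -0.028 to 0.26 for *Lbr*, -0.033 to 0.16 for *Emd* and -0.070 to 0.11 for *Hmgb2*. In TE it gave -0.035 to 0.081 for *Lmnb1*, -0.46 to 0.071 for *Lmnb2*, -0.087 to 0.11 for *Lmna* and -0.036 to 0.21 for *Hmgb1*. The cause of these shifts was not tested. *Lmnb2* had the fewest counts, at 23 to 160 in an RPF library.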
